A study of Mus musculus with 20 samples.

Results

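Transcripts of Trp53, the mouse gene for the tumor suppressor p53, and of 9 of its classical target genes were followed through neuronal differentiation of control and HPRT-knockdown cells. The members were Trp53, Cdkn1a, Mdm2, Ccng1, Sesn1, Sesn2, Bax, Bbc3, Phlda3 and Trp53inp1, picked by gene symbol, and they are 10 of the 37557 genes that all tables share. All 10 passed the level filter that left 13604 genes for testing.

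The cells were mouse ESD3 embryonic stem cells of strain 129s2/SvPas, maintained on primary mouse embryo fibroblast feeders and grown as spherical neural masses (SNM) toward dopaminergic neurons. Control cells carried a virally delivered short hairpin RNA against luciferase and knockdown cells 1 against HPRT, the purine salvage enzyme, and both lines were selected with puromycin per the study's methods. RNA-Seq libraries were made daily from day 0 to day 4 and on every second day from day 6 to day 14, with 1 library per line and day, 20 in all, and per the methods each library held the pooled RNAs of its time point. There was 1 line of each kind, so differences between the lines cannot be told apart from differences between these 2 infected cell populations, and p-values measure the spread between days.

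p53 is a transcription factor that is kept at a low level by the ubiquitin ligase MDM2 and is stabilized when DNA is damaged or cells are stressed, mostly through its protein rather than through its mRNA. It binds response elements near its targets and raises transcripts that halt the cell cycle, start apoptosis, limit growth signaling or restrain p53 itself. In embryonic stem cells Trp53 mRNA is abundant, and p53 takes part in their exit from self-renewal.

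Matches to the p53 response element near the members are shown first, since the description of the targets refers to them. The p53 response-element consensus of 20 bases was searched from 3000 bases before to 2000 bases after each annotated gene start (NCBIM37, GENCODE vM1), with at most 2 mismatches and with the C and G of both cores intact. The consensus reads the same on both strands. It was searched without a spacer, so elements with a spacer, with more mismatches or outside the window were missed. A gene without a match may therefore still have an element. Matches stood at 3 of the 10 members, and 4.99% of 22367 protein-coding gene windows held 1 or more. The matches are given on the gene's own strand, with the core bases in capitals.
Cdkn1a, chr17:29227873-29227892 (plus strand, position -41 from the gene start, 1 mismatch): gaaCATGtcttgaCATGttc
Ccng1, chr11:40568964-40568983 (minus strand, position -161 from the gene start, 1 mismatch): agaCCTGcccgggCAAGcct
Ccng1, chr11:40568438-40568457 (minus strand, intron, 365 bases after the gene start, 1 mismatch): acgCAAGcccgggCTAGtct
Bax, chr7:52721944-52721963 (minus strand, exon, 314 bases after the gene start, 2 mismatches): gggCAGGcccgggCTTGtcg

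A ratio is the log2 level of a gene in the HPRT-knockdown library minus that in the same day's control library, so that -1 means a level at 50% of the control. The study set day 6 apart as discrepant. Tests therefore rest on the other 9 days, over which SDs were taken, and day 6 is described on its own. Normalization was done by the authors within each table of a pair of libraries. Levels within a gene are log2 values relative to the control library of day 0. For Trp53, Cdkn1a, Bbc3 and Trp53inp1, and for Hprt, read counts could be recovered from the deposited ratios and are given as normalized reads, divided by the library's size factor, which ranged from 0.7945 to 1.511. Their errors from counting were between 1.17% and 7.24% per library for the 4 members.

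The targeted gene was lower in the knockdown on each day. Hprt had 561, 701 and 931 normalized reads at the lowest, the median and the highest of the 10 control libraries and 20.7, 38.8 and 149 in the knockdown. The groups did not overlap, and the mean ratio was -4.00 ± 0.89 (SD, n = 9 days; limma adjusted p 1.39e-05). The depletion was not uniform. Hprt stood at 17.4% of the control on day 0 and 15.3% on day 1, the highest shares, and at 3.12% on day 14, the lowest. The slope of its ratio on day did not pass (limma adjusted p 0.173). Marker genes placed the libraries. The 5 neuron markers measured averaged 0.99 on day 14 of the control line and -1.20 in the knockdown line, relative to control day 0. The 6 pluripotent cell markers averaged -0.42 in the control and -2.65 in the knockdown on day 14. In the control line their average was 1.38 on day 8 and 1.18 on day 12, so it did not fall steadily. Between the lines 3 of 5 neuron markers and 2 of 4 endothelium markers tested were lower in the knockdown, with median ratios of -1.88 and -0.65. The endothelium markers Cdh5, at 0.11, and Kdr, at 0.58, did not pass. All 5 astrocyte markers and 2 of 6 oligodendrocyte markers were higher, with medians of 1.34 and 2.35, as were 1 of 4 dopaminergic neuron markers (median 0.28) and 2 of 6 neural progenitor markers (median 0.23), of which 1 more was lower. Some lists changed sign with day. The mean ratio of the endothelium markers was below 0 on 5 of the 9 days tested and above 0 on 3. That of the oligodendrocyte markers was below 0 on 3 days and above on 6. Every marker found in the tables had reads in at least 1 of them. In bulk samples of this kind fewer cells of a type and less RNA per cell cannot be told apart.

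Trp53 was lower in the knockdown line through most of the course, while its targets divided into those that were lower, those that showed no difference on average and 1 that was higher. Of the 10 members, 6 passed the limma test, 5 lower and 1 higher, and 52.5% of all genes tested passed it, 26.3% lower and 26.2% higher. Trp53 stood at 58.4% of the control on average and Sesn2 at 70.3%. Cdkn1a, Ccng1 and Phlda3 stood at 96.3%, 98% and 98%, with 95% intervals that reached from 0.761-fold to 1.22-fold for Cdkn1a.

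**Figure D1:**
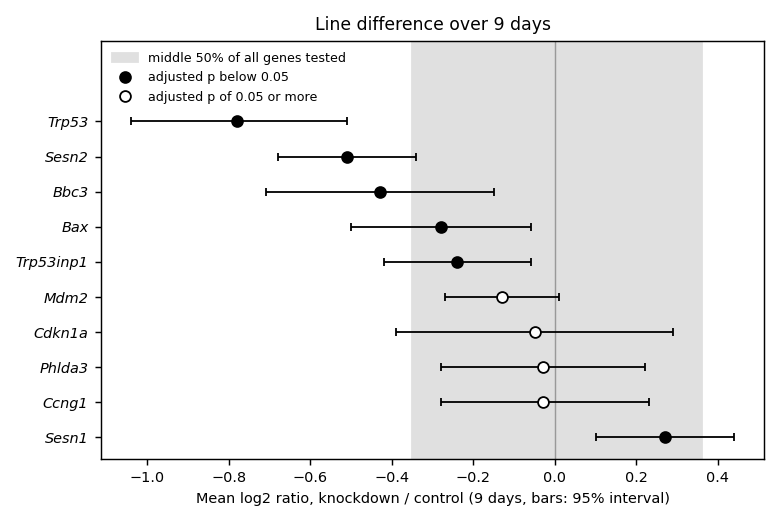
Mean log2 ratio of each member over 9 days (points, knockdown over control) with its 95% interval from limma (bars); filled points passed the adjusted threshold of 0.05, and the grey band holds the middle 50% of all genes tested. Trp53, at -0.78, and Sesn2, at -0.51, lie lowest, and Sesn1, at 0.27, is the only member above 0.

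Trp53 itself (Gene ID 22059, chr11:69393861-69405375, plus strand) had 1013, 1970 and 2493 normalized reads at the lowest, the median and the highest of the 10 control libraries. In the knockdown it had 795, 1212 and 2277. On the 9 days tested, the knockdown libraries reached at most 1400 reads, on day 3, and the control library of day 14, at 1013, was the only one of the control line within their range. The ratio was lowest on day 1, at -1.54, and started from -0.70 on day 0. Days 2, 3 and 4 gave -0.92, -0.78 and -0.88. From day 8 to day 14 it came to -0.71, -0.79, -0.48 and -0.15. All 9 ratios were below 0, which held for 15.2% of all genes tested. The mean was -0.78 ± 0.37 (SD, n = 9 days; limma adjusted p 0.000652), and the two-sided exact permutation test, which flips the signs of the ratios, gave p = 0.00390625, the smallest it can give. On day 6 the ratio had the opposite sign, 0.59, from 1484 reads in the control and 2277 in the knockdown. Of the exonic 49-base sequences of Trp53, 5.09% occur elsewhere in the genome, so reads from a related copy could enter its count.

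**Figure D2:**
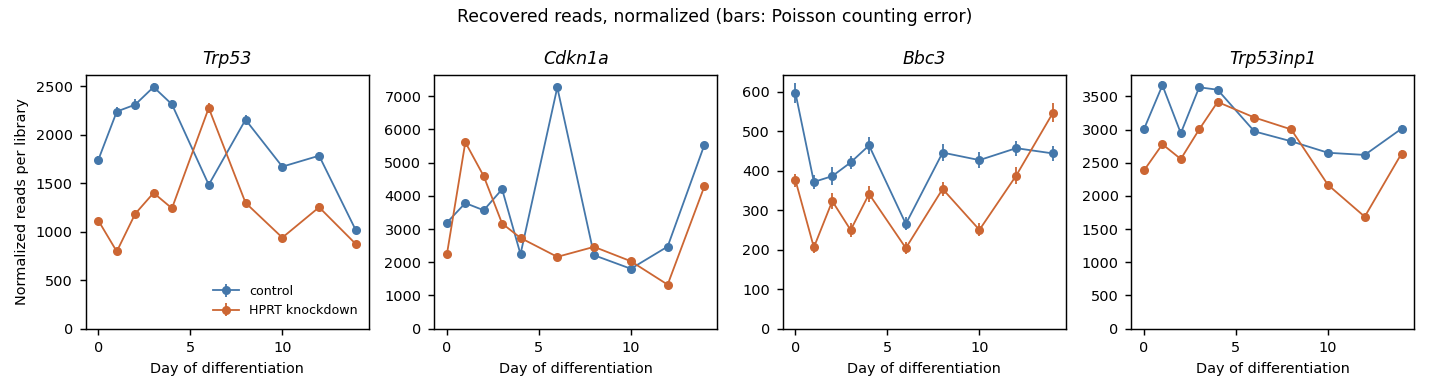
Normalized reads (vertical axes, from 0) of Trp53, Cdkn1a, Bbc3 and Trp53inp1 by day of differentiation in the control and the HPRT-knockdown line, 1 library per point, with Poisson counting error as bars. The lines of Trp53 lie apart on all days but 6, where they cross, and 14, where they come close, while those of Cdkn1a cross several times with peaks at 7268 reads on day 6 of the control and 5615 on day 1 of the knockdown.

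The marker lists of pluripotent and of cycling cells had mean ratios of the same sign as Trp53 on each of the 10 days. All 6 pluripotent cell markers tested were lower in the knockdown, with a median ratio of -2.81, and 8 of 9 cycling cell markers were lower, with a median of -0.97. The mean ratio of the pluripotent cell markers was lowest on day 1, at -7.49, the day on which the Trp53 ratio was lowest, and it was 0.50 on day 6. For Nanog, Zfp42, Dppa5a and Tdgf1 the differences of 4 tables joining neighboring days missed 0 by up to 0.28, 0.2, 0.2 and 0.13. Values were floored at 1 normalized count, so the mean of day 1 may rest on few reads. The mean of the cycling cell markers was -1.59 on day 1 and 0.54 on day 6, also the lowest and the highest of the 10 days. Of the 9 feeder fibroblast markers 1 was higher and 2 were lower over the days tested, but the list changed sign with day. Its mean ratio was 0.83 on day 4, with 8 of 9 markers higher. On days 10, 12 and 14 it was -1.07, -1.30 and -0.96, with 8, 9 and 8 of 9 lower. The part of these cell states in the Trp53 result was not tested.

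The 3 genes whose profile of 9 ratios was most like that of Trp53 were Dhx16 (Pearson r = 0.979), Pdcd7 (r = 0.973) and Cbll1 (r = 0.973), over n = 9 days. These values are a description, chosen as the highest among 13604 genes. Their ratios on day 6, which did not enter r, were 0.26, 0.61 and 0.22, above 0 as for Trp53. The median ratio of all genes tested was 0.00 on that day, so a value above 0 was common.

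Feedback and arrest targets come next. Cdkn1a (Gene ID 12575, chr17:29227924-29237667, plus strand) encodes p21, the cyclin-dependent kinase inhibitor that carries out arrest in G1. It had 1802, 3380 and 7268 normalized reads at the lowest, the median and the highest of the control libraries and 1323, 2598 and 5615 in the knockdown, and the groups overlapped widely. The ratio lay between -0.87 on day 12 and 0.52 on day 1, below 0 on 4 days and above on 5. The mean of -0.05 ± 0.48 (SD, n = 9 days) did not pass the test (limma adjusted p 0.784). On day 6 the ratio was -1.78, lower than on any of the 9 days.

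Mdm2 (Gene ID 17246, chr10:117125944-117147814, minus strand), the ligase that removes p53, varied little between the lines. Its ratio lay between -0.29 and 0.10 on the 9 days, with a mean of -0.13 ± 0.13 (limma adjusted p 0.103) and an interval from -0.27 to 0.01. The exact sign-flip permutation test of the 9 ratios, not adjusted, gave p = 0.03125, and after adjustment over all genes tested it did not pass (sign-flip adjusted p 0.06). On day 6 the ratio was -0.73. Its control levels reached from -0.06 to 0.92 and its knockdown levels from -0.17 to 0.48.

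Ccng1 (Gene ID 12450, chr11:40562054-40568813, minus strand) encodes cyclin G1, which recruits a phosphatase to MDM2. Its ratio lay between -0.72 on day 0 and 0.35 on day 10, with a mean of -0.03 ± 0.35 (limma adjusted p 0.846), and was -1.05 on day 6. Phlda3 (Gene ID 27280, chr1:137662696-137665713, plus strand), a repressor of AKT signaling, lay between -0.65 on day 0 and 0.53 on day 10, with a mean of -0.03 ± 0.34 (limma adjusted p 0.842), and was at -1.23 on day 6. Their 95% intervals were -0.28 to 0.23 for Ccng1 and -0.28 to 0.22 for Phlda3.

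The sestrins, which restrain the growth kinase mTORC1 and oxidative stress, differed in opposite directions. Sesn2 (Gene ID 230784, chr4:132047947-132066416, minus strand) was lower in the knockdown on all 10 days, between -0.80 on day 12 and -0.16 on day 2. Its levels were -0.65, -0.28 and 0.11 at the lowest, the median and the highest of the control and -1.48, -0.81 and -0.40 in the knockdown, so the groups overlapped. The mean ratio was -0.51 ± 0.20 (limma adjusted p 0.000539), with p = 0.00390625 from the exact permutation test. Sesn1 (Gene ID 140742, chr10:41530380-41628230, plus strand) was higher, between 0.00 on day 14 and 0.58 on day 8, with a mean of 0.27 ± 0.19 (limma adjusted p 0.0128). Its levels were -0.47, -0.16 and 0.85 at the lowest, the median and the highest of the control and -0.25, 0.12 and 0.78 in the knockdown, with overlap. The annotation places Gm12981 over Sesn2, and reads of overlapping genes may have been split between them.

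The apoptosis genes were lower on average. Bbc3 (Gene ID 170770, chr7:16894965-16903554, plus strand) encodes PUMA, which binds and blocks the survival proteins of the BCL2 family. It had 265, 435 and 597 normalized reads at the lowest, the median and the highest of the control and 204, 332 and 547 in the knockdown, with overlap. The ratio was below 0 on 8 of 9 days, lowest at -0.90 on day 1 and highest at 0.37 on day 14, with a mean of -0.43 ± 0.39 (limma adjusted p 0.0164). Bax (Gene ID 12028, chr7:52717065-52722268, minus strand), which forms pores in the outer mitochondrial membrane, was below 0 on 7 of 9 days and lowest at -0.82 on day 0. Its levels, -0.72, -0.25 and 0.04 in the control and -1.05, -0.57 and 0.09 in the knockdown, overlapped. Its mean was -0.28 ± 0.29 (limma adjusted p 0.0349). Trp53inp1 (Gene ID 60599, chr4:11083578-11101526, plus strand), a stress protein that enhances p53 activity, had 2617, 2990 and 3667 normalized reads in the control and 1686, 2708 and 3416 in the knockdown. Its mean ratio was -0.24 ± 0.22 (limma adjusted p 0.0284), below 0 on 8 of 9 days. Bax was no longer called without any 1 of days 0, 3, 8, 10, 12 or 14 (limma adjusted p 0.0553 to 0.0707), nor Trp53inp1 without any 1 of days 0, 1, 3 or 12 (0.0514 to 0.0625). Where the libraries were not paired by day, 3 members were called, where 42.8% of all genes were, and Sesn1, Bax and Trp53inp1 were not (limma adjusted p 0.287, 0.173 and 0.0937).

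**Figure D3:**
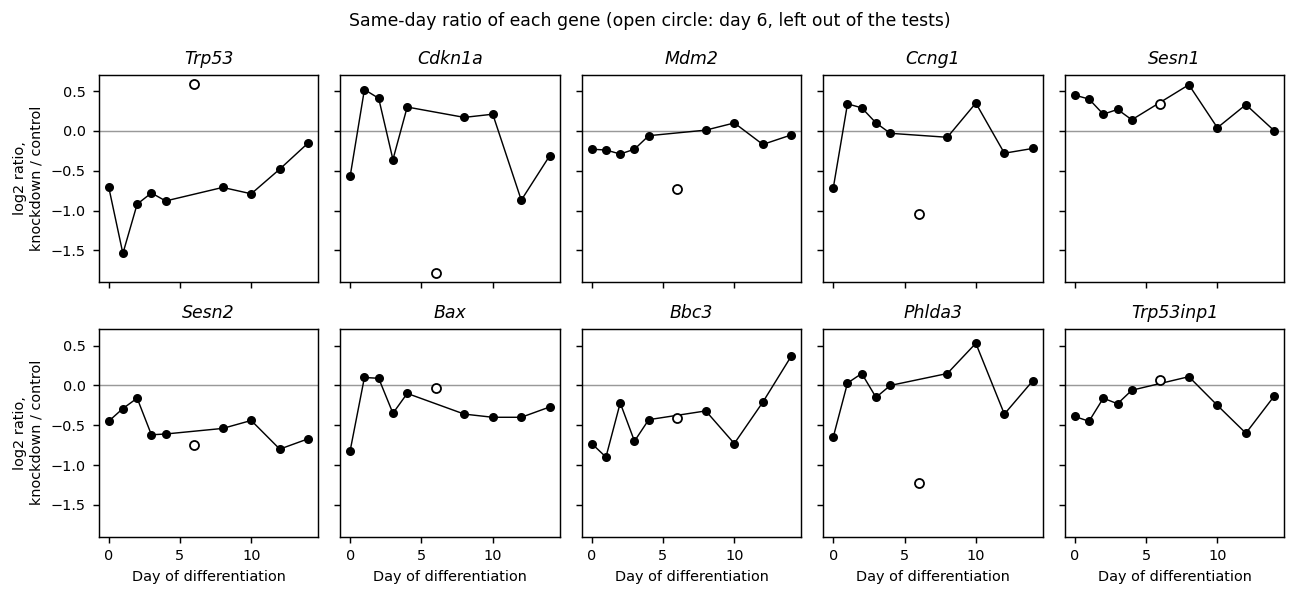
Log2 ratio of the knockdown over the control library (vertical axes) by day of differentiation for each of the 10 members; filled circles are the 9 days tested and the open circle is day 6. Trp53 and Sesn2 lie below 0 on all 9 days and Sesn1 at or above it, while the open circles of Trp53 (0.59) and of Cdkn1a, Ccng1 and Phlda3 (-1.78, -1.05 and -1.23), and of Mdm2 (-0.73), lie outside the range of their other days.

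Days 0 and 6 held the most members that differed by at least 1.5-fold. On day 0, 5 of 10 members were lower by this measure, where 19.4% of all genes tested were, and 0 were higher, where 22.3% were. On day 6, 5 were lower, where 15.2% of all genes were, and 1, Trp53 itself, was higher, where 10.9% were. These counts rest on 1 library per line.

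Per kilobase of annotated exon, Cdkn1a was the highest of the 4 members with recovered reads. The exons of all annotated transcripts of a gene were merged, which gave 4045 bases for Trp53, 2223 for Cdkn1a, 6475 for Trp53inp1 and 2008 for Bbc3. This length can exceed that of the transcript expressed, and the authors' counting may have used other exons, so genes can be compared only roughly. Its median over the 10 control libraries was 1520 normalized reads per kilobase, followed by Trp53 at 487, Trp53inp1 at 462 and Bbc3 at 217. In the knockdown the medians were 1168 for Cdkn1a, 418 for Trp53inp1, 300 for Trp53 and 165 for Bbc3. Over the control libraries Trp53 ranged from 250 to 616 and Trp53inp1 from 404 to 566, so these neighbors did not differ beyond their spread, and Bbc3, at most 297, overlapped with Trp53 only.

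The next question was whether the difference between the lines moved with day. No member passed the limma test on the slope of the ratio, which 14% of all genes tested passed. At an unadjusted p under 0.05 there were 2, Trp53 with 0.053 ± 0.019 per day (SE, n = 9 days; limma adjusted p 0.0927) and Bbc3 with 0.052 ± 0.021 per day (limma adjusted p 0.123). Both slopes were above 0, from a ratio that was lowest on day 1 and highest on day 14. Without day 14 that of Trp53 was 0.039 per day (limma adjusted p 0.31) and that of Bbc3 0.027 (limma adjusted p 0.476). Without day 1 that of Trp53 was 0.037 per day (limma adjusted p 0.143) and that of Bbc3 0.045 (limma adjusted p 0.218). In the control line 4 members passed the test of a slope on day, which 43.6% of all genes tested passed, 23.9% falling and 19.7% rising. Trp53 fell by 0.061 ± 0.019 per day (SE; limma adjusted p 0.0287), Sesn2 fell by 0.053 ± 0.013 (limma adjusted p 0.00932), Bax fell by 0.056 ± 0.007 (limma adjusted p 0.000953), and Sesn1 rose by 0.056 ± 0.017 (limma adjusted p 0.0275). The calls of Trp53 and Sesn1 did not hold without single days. Without day 14 their slopes were -0.032 and 0.034 per day (limma adjusted p 0.176 and 0.169), while Cdkn1a, at -0.079, and Ccng1, at -0.081, then passed. Trp53 also missed the threshold without day 2, 3 or 10 (limma adjusted p 0.0562, 0.0524 and 0.0532) and Sesn1 without day 12 (0.0617). Without day 0 Mdm2 was called as well, at -0.054 per day (limma adjusted p 0.0211), and the number of members called was 3 to 5 over the 9 fits that each left out a day. In the knockdown line Sesn2 fell by 0.082 ± 0.012 per day (limma adjusted p 0.00953) and was the only member called, where 13.1% of all genes were, 5.49% falling. On a scale of log2(day + 1) its slope did not pass (limma adjusted p 0.0741). Without day 0 the members called there were Sesn2, Bax, Ccng1 and Sesn1. Cycling cell markers averaged 0.00 on day 0 and -1.50 on day 14 of the control, and -0.86 and -2.90 in the knockdown, and their part in these slopes was not tested.

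Steps between consecutive days describe how the members moved from day to day. With 1 library per day these steps have no replicate and were not tested. A step is called large here when it was at least 1.5-fold. Of the 180 steps of the 10 members, 37 were large, a share close to the 20% of the steps of all genes tested. Counts of large steps per gene, given next, were not taken for the other genes. Bbc3 had 8 large steps of 18, Cdkn1a 7, Ccng1 6, Trp53 and Phlda3 5 each and Mdm2 4, while Sesn1 and Sesn2 had none.

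The step with the most members past 1.5-fold was that from day 0 to day 1 of the knockdown line. Of the 10 members, 5 were at least 1.5-fold higher on day 1, where 15.9% of all genes tested were. Cdkn1a stepped by 1.39, Ccng1 by 1.21, Phlda3 by 1.01, Bax by 0.89 and Mdm2 by 0.71. Over the same step Trp53 went by -0.42 and Bbc3 by -0.81. Marker lists moved with it in the knockdown libraries, with averages on days 0 and 1 of 0.69 and -2.87 for endothelium, 0.30 and -1.02 for neurons and -0.86 and -1.44 for cycling cells, while that of pluripotent cells was -7.14 on day 1, the lowest of the 10 days of that line, and their part in the step was not tested. In the control line this step was 0.23 for Cdkn1a and 0.08 for Ccng1, and 1 of 10 members, Mdm2 at 0.66, was at least 1.5-fold higher, where 13.3% of all genes were.

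A second joint step came at the end of both lines. From day 12 to day 14 Cdkn1a stepped by 1.72 in the knockdown and by 1.19 in the control, Ccng1 by 0.94 and 0.91, and Phlda3 by 1.04 and 0.65. Large steps up were made by 4 of 10 members in the knockdown, where 9.82% of all genes did, and by 3 in the control, where 10.1% did. Trp53 went the other way in both lines, by -0.50 and -0.80. Feeder fibroblast markers averaged 1.18 on day 12 and 2.05 on day 14 of the control, and -0.15 and 1.02 in the knockdown, relative to control day 0. Over the same days pluripotent cell markers averaged 1.18 and -0.42 in the control and -1.19 and -2.65 in the knockdown, and cycling cell markers -0.83 and -1.50 and -2.40 and -2.90. The part of these lists in the steps was not tested.

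The third was in and out of day 6 of the control line. From day 4 to day 6 Cdkn1a stepped by 1.73, Phlda3 by 0.72, Mdm2 by 0.66 and Ccng1 by 0.36, and from day 6 to day 8 they went by -1.74, -1.01, -0.73 and -0.88. Large steps up into day 6 were made by 3 of 10 members, where 17.8% of all genes did, and large steps down out of it by 4, where 13.3% did. Trp53 went by -0.61 into day 6 and by 0.51 out of it. In the control libraries of days 4, 6 and 8 pluripotent cell markers averaged 0.60, -0.56 and 1.38, cycling cell markers 0.32, -0.40 and -0.32 and feeder fibroblast markers -1.27, 0.07 and 0.27, and their part in these steps was not tested. In the knockdown line Trp53 made the opposite steps, 0.89 into day 6 and -0.88 out of it, and Cdkn1a went by -0.33 and 0.12. Both steps share the control library of day 6, so they are 1 observation of that library.

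Over the 18 steps Cdkn1a moved at least 2-fold in 5. In these 5, chosen by the size of the Cdkn1a step, Mdm2, Ccng1 and Phlda3 had the sign of Cdkn1a each time, Trp53inp1 in 4, Sesn1 and Sesn2 in 3, Bax in 2, Bbc3 in 1 and Trp53 in 0. Over all 18 steps Mdm2 and Phlda3 shared its sign in 15, Ccng1 in 14, Trp53inp1 in 12, Sesn1, Sesn2, Bax and Bbc3 in 8 each and Trp53 in 7. Of Cdkn1a, Mdm2, Ccng1 and Phlda3, Cdkn1a and Ccng1 had a match to the response element in the window searched. Mdm2 and Phlda3 may have elements of a form that the search could not find. Bax, which shared the sign of Cdkn1a in 8 of 18 steps, had a match as well. These 5 steps include 2 that share a library, and genes measured in the same libraries share their errors of normalization. Neighboring steps of a line also share a library. The same sign counts were not taken over all genes tested, so they do not set these targets apart from other genes. The 3 genes whose ratio profile was most like that of Cdkn1a over the 9 days were Tspan13 (Pearson r = 0.945), Snord123 (r = 0.905) and Tbc1d1 (r = 0.903). This too is a description. None of the 3 had a day 6 ratio near that of Cdkn1a, with -0.19, -0.55 and -0.18.

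**Figure D4:**
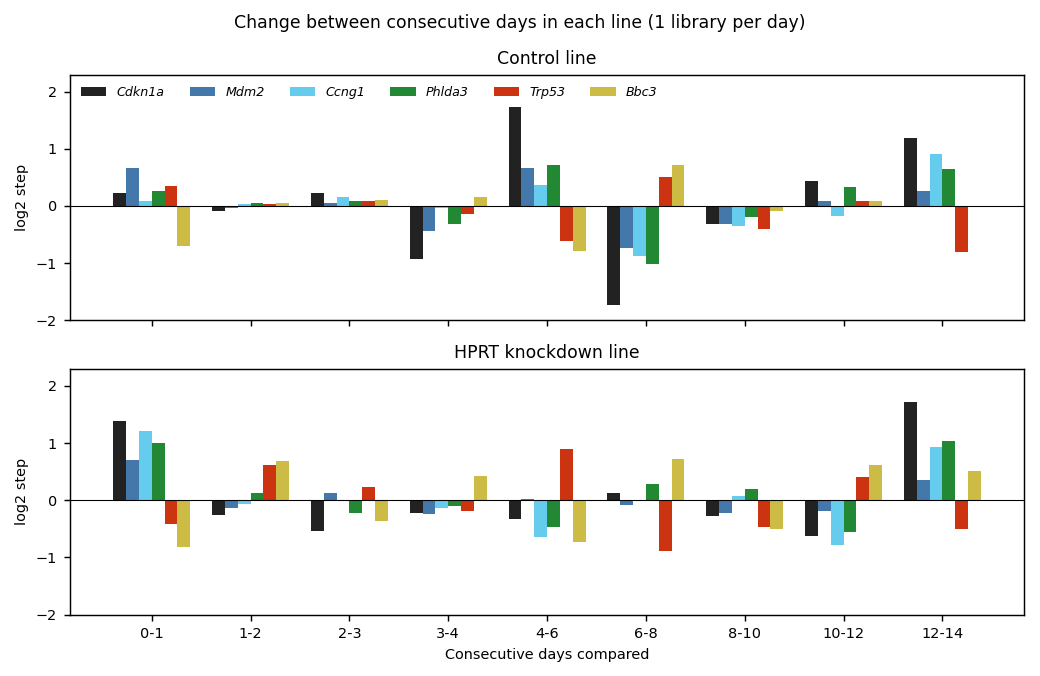
Log2 step between consecutive days (bars) of Cdkn1a, Mdm2, Ccng1, Phlda3, Trp53 and Bbc3 in the control and the HPRT-knockdown line, each from a pair of single libraries. The Cdkn1a, Ccng1 and Phlda3 bars point up together from day 0 to 1 of the knockdown (1.39, 1.21 and 1.01) and from day 12 to 14 of both lines, where the Trp53 bar points down.

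The rest of the pathway was described by a list of 109 other regulators and targets of p53, written from general knowledge, of which 101 were tested. Of these 52 passed the limma test, 17 higher and 35 lower, or 51.5%, where 52.5% of all genes passed, 26.3% lower and 26.2% higher. The counts by role that follow are to be read against these shares. The median ratio was -0.11, where that of all genes was 0.01.

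Regulators of p53 were lower in 12 and higher in 3 of 23, with a median ratio of -0.24. The lowest called were Sirt1 at -1.24 ± 0.44, a deacetylase of p53, Chek1 at -0.95 ± 0.42, the checkpoint kinase of replication stress, Trim28 at -0.86 ± 0.33 and Usp7 at -0.68 ± 0.20, the deubiquitinase of MDM2. The 3 higher were Hipk2 at 0.76 ± 0.46, a kinase that phosphorylates p53, Bcl6 at 0.57 ± 0.44 and Rfwd2 at 0.22 ± 0.18. Trp73, a relative of Trp53, had -1.09 but did not pass (limma adjusted p 0.12).

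Arrest genes were lower in 7 and higher in 3 of 16, with a median of -0.34. Sfn, a 14-3-3 protein of the G2 checkpoint, had the lowest ratio of the list at -2.16 ± 1.32, followed among the arrest genes by Prdm1 at -1.34 ± 1.35, Gtse1 at -1.30 ± 0.33 and Pml at -1.10 ± 0.64. Plk3, a stress kinase, stood at 49.8% of the control. Gadd45b at 0.80 ± 0.53, Tob1 at 0.41 ± 0.40 and Rb1 at 0.37 ± 0.13 were higher. Gtse1 is itself a transcript of G2 cells, and cycling cell markers were lower in the same libraries. Their part in the Gtse1 ratio was not tested.

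Apoptosis genes were lower in 7 and higher in 3 of 17, with a median of -0.12. Pmaip1, which encodes NOXA, was lowest at -1.39 ± 1.15, and Bid, Siva1 and Bcl2l11 followed at -0.86 ± 0.33, -0.74 ± 0.28 and -0.58 ± 0.40. The death receptor gene Fas was higher on 9 of 9 days at 0.75 ± 0.37. The survival gene Bcl2 was higher at 0.62 ± 0.58, on 7 of 9 days, and Aifm2 at 0.37 ± 0.26, on 8.

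The other roles were mixed. Of 15 metabolic genes, with a median of 0.01, Gls2 was lower at -0.91 ± 0.97 and Ephx1, Cpt1c and Sesn3 were higher at 1.05 ± 0.29, 0.57 ± 0.27 and 0.53 ± 0.26. Of 11 DNA repair genes, with a median of -0.11, none was higher and 4 were lower, among them Pcna at -0.72 ± 0.35, Mgmt at -0.63 ± 0.61 and Pcbp4 at -0.39 ± 0.39. Pcna, the clamp of DNA polymerases, belongs to replicating cells as well, and the part of such cells in its ratio was not tested. Of 19 genes of autophagy, secretion and other functions, with a median of 0.40, 5 were higher, among them Igfbp3 at 1.19 ± 0.76, Notch1 at 0.89 ± 0.34 and Vcan at 0.73 ± 0.51. The 4 lower were Psrc1 at -0.86 ± 0.41, Dram1 at -0.80 ± 0.48, Rps27l at -0.38 ± 0.45 and Ulk1 at -0.35 ± 0.41.

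**Figure D5:**
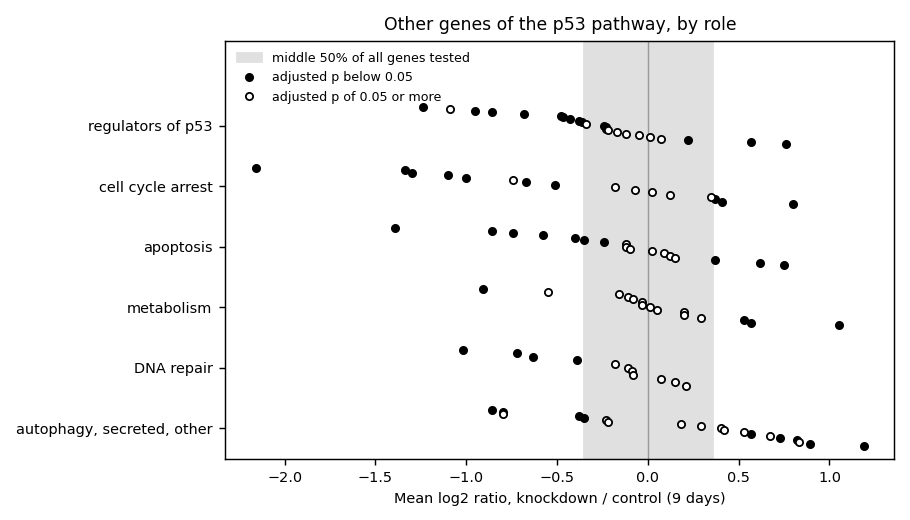
Mean log2 ratio over 9 days (horizontal axis, knockdown over control) of 101 other genes of the p53 pathway by role; filled points passed the adjusted threshold of 0.05 and the grey band holds the middle 50% of all genes tested. Points reach from Sfn at -2.16 to Igfbp3 at 1.19, and DNA repair genes have no filled point above 0.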

How the data were processed

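RNA-Seq was done in 20 libraries, 10 per line, grouped by the labels. The authors aligned reads of 50 cycles by ELAND in CASAVA 1.8.2 to NCBI37/mm9, and quantified genes in Avadis NGS after DESeq normalization. The authors deposited 28 tables of 2 libraries, 10 of the same day and 9 of consecutive days per line, as log2 values centred on the mean of the pair and floored at 1 normalized count, which understates ratios of low genes; each table was normalized separately. Read totals were not used here. No source used here states whether strand was used in counting.

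The ratio of a day was taken within its table. A gene was tested where the rounding step of its values put its log2 normalized count typically at 4 or more. Where 4 tables join 2 neighboring days of both lines, their differences, with each table's scaling undone, should add to 0, and did within 1e-05 for all members but between days 3 and 4. There only 0.1295% of 14677 genes closed. The control table of these days was left out of fitted levels and kept in the control slopes and steps, where no member's step differed from the fitted one in being large. Read counts, in fractions of a read of 49 bases, were recovered from the ratios of 4 members and Hprt and not of the other 6 members; of 200 random genes 39.5% could be recovered, and 0 with scrambled ratios. Errors of recovered reads cover counting error only; intervals of ratios come from the spread between days.

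Line differences (9 days, without day 6) and slopes were tested with limma 3.58.1 in R 4.3.3, Benjamini-Hochberg adjusted over all genes tested, threshold 0.05; slopes within a line used steps joined from separately normalized tables. Days paired the libraries, since both lines were collected on each day. Deviations of paired libraries correlated at 0.139 to 0.417 on 8 of 9 days and at -0.0132 on day 0. The same-day library was the best match of the control library on days 3, 4, 8 and 14 only. It was the best match of the knockdown library on days 1, 2, 4, 8, 12 and 14 only. Days are collections of the same line, so p-values measure the spread between days. Scripts were tested on simulated data. The members and gene lists were chosen with earlier results of these data known. Named were all members, from the pathway list up to 4 called genes at each end of a role and any beyond 2-fold, and 3 genes by profile; 2 of the pathway genes this rule names are not reported here. Alternatives were another filter or none, day 6, centring, each day left out, fitted levels, unpaired libraries, a sign-flip test, a log day scale and a pseudocount of 5. No protein sequence was used here.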

Additional observations from a re-analysis of the deposited data

Results flagged for a closer look

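The ratio of Mdm2 on day 6, -0.73, stood apart from the other 9 days, of which the nearest was -0.29. The gap was 0.535 of the whole range of the 10 days, past Dixon's 95% critical value. Of 33 sets of 10 values tested (control levels, knockdown levels and ratios of the 10 members and Hprt), this was the only one that stood apart. Chance gives about 1 in 20, so 1 set of 33 is no more than it would give. The sets of a gene are linked, and day 6 is the day that the study had set apart as discrepant. The value comes from 1 library per line, and the levels behind it were 0.92 in the control, the highest of that line, and 0.23 in the knockdown.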

How the results depend on the processing

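Of the 10 members 6 were called for the line difference, and 4 to 6 with each of the 9 days left out in turn; Trp53, Sesn1, Sesn2 and Bbc3 stayed called in each. With no replicate block, that is without pairing by day, 3 were called (Trp53, Sesn2 and Bbc3). With day 6 kept Trp53inp1 was not called (-0.21, limma adjusted p 0.0535). For the slope of the ratio, 1911 of all genes were called, 1066 with day 6 kept and 605 to 1666 with a day left out, and no member in any of these. In the control line, a slope on log2(day + 1) called 2 members in place of 4 (not Trp53 and Sesn1) and 3930 genes in place of 5933. In the knockdown line it called 0 members in place of 1 (Sesn2) and 126 genes in place of 1776, and leaving out a day gave 1 to 4 members and 169 to 2961 genes. The slope of the ratio changed sign on log2(day + 1) for Ccng1 (0.042) and Bax (0.010) and with fitted levels for Trp53inp1 (-0.002); none of these was called. Leaving out a day also turned uncalled values: line differences of Cdkn1a (-0.13 to 0.05), Ccng1 (-0.08 to 0.06) and Phlda3 (-0.10 to 0.05), slopes of the ratio of Ccng1 (-0.033 to 0.006), Bax (-0.031 to 0.003) and Trp53inp1 (-0.003 to 0.018), control slopes of Cdkn1a (-0.079 to 0.001), Bbc3 (-0.012 to 0.013) and Phlda3 (-0.045 to 0.002) and knockdown slopes of Trp53 (-0.027 to 0.006) and Phlda3 (-0.018 to 0.033). With fitted levels the control slope of Trp53 was -0.055 (limma adjusted p 0.0501). The pseudocount of 5 could be applied only where reads were recovered (Trp53 -0.79, Bbc3 -0.44), so it gave no count of calls. Except where the alternative itself leaves out days or genes, the cause of these changes was not tested.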
